A study of Mus musculus with 12 samples.

Results

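The serum amyloid A genes Saa1, Saa2, Saa3 and Saa4 and the orosomucoid genes Orm1, Orm2 and Orm3 were followed in the livers of 12 C57BL/6 mice. They were taken by gene symbol, through GENCODE M21 names of the Ensembl transcript IDs, and make up 7 of the 13267 rows of the table. All 7 were present and all 7 passed the filter on low values, which asked for 10 or more normalised read counts in 6 or more libraries. The comparison asked how liver transcripts differed after treatment with 4-hydroxyphenylacetic acid (4-HPAA), a phenolic acid that gut bacteria make from dietary polyphenols. The 6 4-HPAA mice carried a pellet releasing the compound under the skin and the 6 Control mice carried the scaffold pellet alone, each for 6 weeks. All 12 mice had first been made obese with a high-fat diet and had fatty livers, so no lean or untreated liver is part of the comparison. The sources used here do not give age or sex.

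Serum amyloid A proteins and orosomucoids (alpha-1-acid glycoproteins) are plasma proteins made mainly by hepatocytes as part of the acute phase response. In that response IL-6, IL-1 and TNF reach the liver and act through STAT3, NF-kB and C/EBP factors, with glucocorticoids adding to the effect. Saa1 and Saa2 code for the inducible apolipoproteins that ride on HDL, Saa3 for a form that macrophages and fat tissue also make in mice, and Saa4 for the form known as constitutive. The Orm genes code for lipocalins that carry lipophilic drugs and other small molecules in plasma. The labels name each library as a separate replicate and say nothing of litters or cages, so p-values measure only the spread between these samples.

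The 4 Saa genes lie on mouse chromosome 7 of the GRCm38 build. Saa3 occupies chr7:46711998-46715700, Saa4 chr7:46727998-46732603 and Saa1 chr7:46740497-46742980, all on the minus strand, and Saa2 lies at chr7:46751790-46754313 on the plus strand. The 3 Orm genes lie on chromosome 4, all on the plus strand, with Orm1 at chr4:63344560-63348163, Orm3 at chr4:63356162-63359511 and Orm2 at chr4:63362449-63365878. RefSeq's promoter table for GRCm38.p6 matched 6 of the 7 genes, all but Orm1. The 250 bases before the RefSeq start are printed for 5 of them, since Saa1 with Saa2 and Orm2 with Orm3 are close copies and Saa4 is the copy held to be constitutive. They come from chr7:46742981-46743230 on the minus strand for Saa1, chr7:46751583-46751832 on the plus strand for Saa2, chr7:46732604-46732853 on the minus strand for Saa4, chr4:63362199-63362448 on the plus strand for Orm2 and chr4:63355908-63356157 on the plus strand for Orm3. Each runs 5′ to 3′ toward the gene, and capitals mark every match, on either strand, to the C/EBP letters TTNNGNAA or the glucocorticoid receptor letters ACANNNTGT.
Saa1: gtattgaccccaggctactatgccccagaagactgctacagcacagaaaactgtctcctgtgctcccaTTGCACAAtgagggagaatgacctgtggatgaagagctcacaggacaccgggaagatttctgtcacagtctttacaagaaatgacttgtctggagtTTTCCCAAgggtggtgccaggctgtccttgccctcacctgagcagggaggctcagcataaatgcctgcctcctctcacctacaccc
Saa2: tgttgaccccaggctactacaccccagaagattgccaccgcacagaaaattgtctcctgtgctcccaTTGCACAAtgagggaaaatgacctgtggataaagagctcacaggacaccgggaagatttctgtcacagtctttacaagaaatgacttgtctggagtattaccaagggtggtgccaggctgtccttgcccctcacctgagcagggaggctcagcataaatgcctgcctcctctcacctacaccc
Saa4: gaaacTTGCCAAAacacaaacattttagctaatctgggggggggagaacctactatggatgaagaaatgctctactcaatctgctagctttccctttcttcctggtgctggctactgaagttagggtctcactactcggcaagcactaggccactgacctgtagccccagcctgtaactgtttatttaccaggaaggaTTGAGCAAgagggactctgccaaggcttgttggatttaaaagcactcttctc
Orm2: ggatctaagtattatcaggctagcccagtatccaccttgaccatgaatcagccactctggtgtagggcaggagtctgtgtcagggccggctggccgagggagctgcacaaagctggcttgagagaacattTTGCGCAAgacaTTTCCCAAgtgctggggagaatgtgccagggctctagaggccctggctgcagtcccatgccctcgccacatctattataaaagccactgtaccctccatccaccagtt
Orm3: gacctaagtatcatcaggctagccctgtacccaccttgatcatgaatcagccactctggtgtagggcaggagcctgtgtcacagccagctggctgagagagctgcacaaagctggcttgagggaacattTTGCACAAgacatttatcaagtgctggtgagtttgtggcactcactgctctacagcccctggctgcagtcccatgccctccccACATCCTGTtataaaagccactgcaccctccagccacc

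Every one of the 6 promoters held at least 1 match to the C/EBP letters, which 36.9% of 32851 mouse promoters of this length also hold. Saa1 had one at -182 to -175 and one at -86 to -79, counted back from the RefSeq start. Saa2 had the first of these, at -183 to -176, and its letters at the second place differ. Orm2 had matches at -120 to -113, which reads on both strands, and at -108 to -101, whereas Orm3 had the one at -121 to -114. Saa3, not printed, had 4 matches, and Saa4 had 2. The glucocorticoid receptor letters were found in Orm3 alone of the 6, at -38 to -30, against 5.84% of all promoters. No match to the STAT letters TTCNNNGAA or to the NF-kB consensus was found in these windows, against 7.02% of all promoters for the STAT letters and 5.00% for the NF-kB consensus. A match is a run of letters and not a measured binding site. The Saa1 and Saa2 promoters were identical at 94.8% of aligned positions and those of Orm2 and Orm3 at 85.5%, whereas the other Saa pairs ranged between 43.8% and 48.5%.

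The transcripts are close copies as well, and this bears on how far their values can be told apart. The coding sequences of Saa1 and Saa2 were identical at 95.1% of positions, those of Saa1 and Saa3 at 76.1%, and those of Saa1 and Saa4 at 65.2%. Orm1 shared 89.9% with Orm2 and 86.1% with Orm3. Coding bases 70 to 189 of Saa1 and Saa2, and coding bases 139 to 258 of Orm1 and Orm2, are printed as the sequence a read has to tell apart. The Saa pair spans an intron, within chr7:46741297-46742453 on the minus strand for Saa1 and chr7:46752360-46753515 on the plus strand for Saa2. The Orm pair lies at chr4:63345090-63345209 for Orm1 and chr4:63362965-63363084 for Orm2, both on the plus strand. Capitals mark the 12 bases that differ in the first pair and the 26 that differ in the second.
Saa1: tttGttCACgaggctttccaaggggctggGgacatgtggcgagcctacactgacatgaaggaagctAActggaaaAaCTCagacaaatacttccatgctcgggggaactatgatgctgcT
Saa2: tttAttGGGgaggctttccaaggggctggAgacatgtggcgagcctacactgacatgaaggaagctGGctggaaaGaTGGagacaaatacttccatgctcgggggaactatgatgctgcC
Orm1: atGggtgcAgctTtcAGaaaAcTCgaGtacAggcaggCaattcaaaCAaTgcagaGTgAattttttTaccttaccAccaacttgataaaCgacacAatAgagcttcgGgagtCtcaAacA
Orm2: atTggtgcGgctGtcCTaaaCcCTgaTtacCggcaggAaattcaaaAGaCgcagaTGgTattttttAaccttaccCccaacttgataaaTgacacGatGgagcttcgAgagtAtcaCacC

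Of the 560 windows of 50 bases along the Saa1 transcript, 74 also occur in Saa2, and at 100 bases none does. Of the 726 windows of 50 bases in Orm1, 148 occur in Orm2, and of the 676 windows of 100 bases, 47 do. Levels within each pair are therefore uncertain where the authors' counting could split or drop shared reads. The Saa2 row stands under the transcript Saa2-204, which GENCODE calls a retained intron, so its counted exons are not known. Summing each set of copies gave differences, 4-HPAA minus Control on the log2(value + 1) scale, of 2.77 for Saa1 with Saa2 and 1.09 for the 3 Orm genes. Neither sum passed limma's test (adjusted p = 0.190 and 0.148).

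Library totals of the authors' normalised read counts lay between 22869813 and 25255447. All 14 hepatocyte markers were tested, and their summed level lay between 2636970 and 3190890 in 4-HPAA livers, against 2809580 to 3413150 in Control livers. Alb, 1 of these genes, makes up much of that sum, and the other 13 summed to between 1310800 and 1388080 in 4-HPAA livers and between 1073780 and 1389330 in Control livers. Of the 14, 10 had a positive difference, 5 were higher and 1 lower at an unadjusted p under 0.05. In a principal component analysis of the 2000 most variable genes, 4-HPAA replicates 1, 2 and 5 lay at -29.7, -26.5 and -23.4 on the first component, which held 37.2% of the variance. Replicate 3 lay at -13.5, replicate 6 at -0.04 and replicate 4 at 9.09, while the Control mice lay between -1.09 and 26.9. 4-HPAA replicate 3 stood apart on the second component, of 16.7%, at -38.4, where the other 11 libraries lay between -5.20 and 15.1. No gene of the 12720 tested passed limma's test at an adjusted p of 0.05, while 1886 had an unadjusted p under 0.05. Of all genes, 49.8% had a positive difference, 7.26% were higher and 7.56% lower at that unadjusted level.

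All 7 genes averaged higher in 4-HPAA livers than in Control livers, where 49.8% of all genes did, and none passed limma's test after adjustment over all genes. Saa1 and Saa2 had the widest differences, Orm2 and Orm3 the next, then Orm1, and Saa4 and Saa3 the narrowest. Before adjustment, 6 of the 7, all but Saa3, were higher at p under 0.05, against 7.26% of all genes tested. The median difference over the 7 was 1.51 on the log2 scale, against -0.00092 over all genes. After adjustment 0 of the 7 passed, against a background of 0% of all genes, and 1.64% of genes were higher at an adjusted p under 0.2. In no gene did the 6 4-HPAA values all lie above the 6 Control values, which 0.307% of all genes did. Leaving out 4-HPAA replicate 4 brought Saa4 and Orm1 past the threshold, with adjusted p of 0.0227 and 0.0310, so that the count of passing genes rested on 1 library. In that fit 193 of 12677 genes passed, or 1.52%, against 0 with all 12 libraries. In these bulk livers, a change in the number of cells of a type and a change in RNA per cell cannot be told apart.

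**Figure D1:**
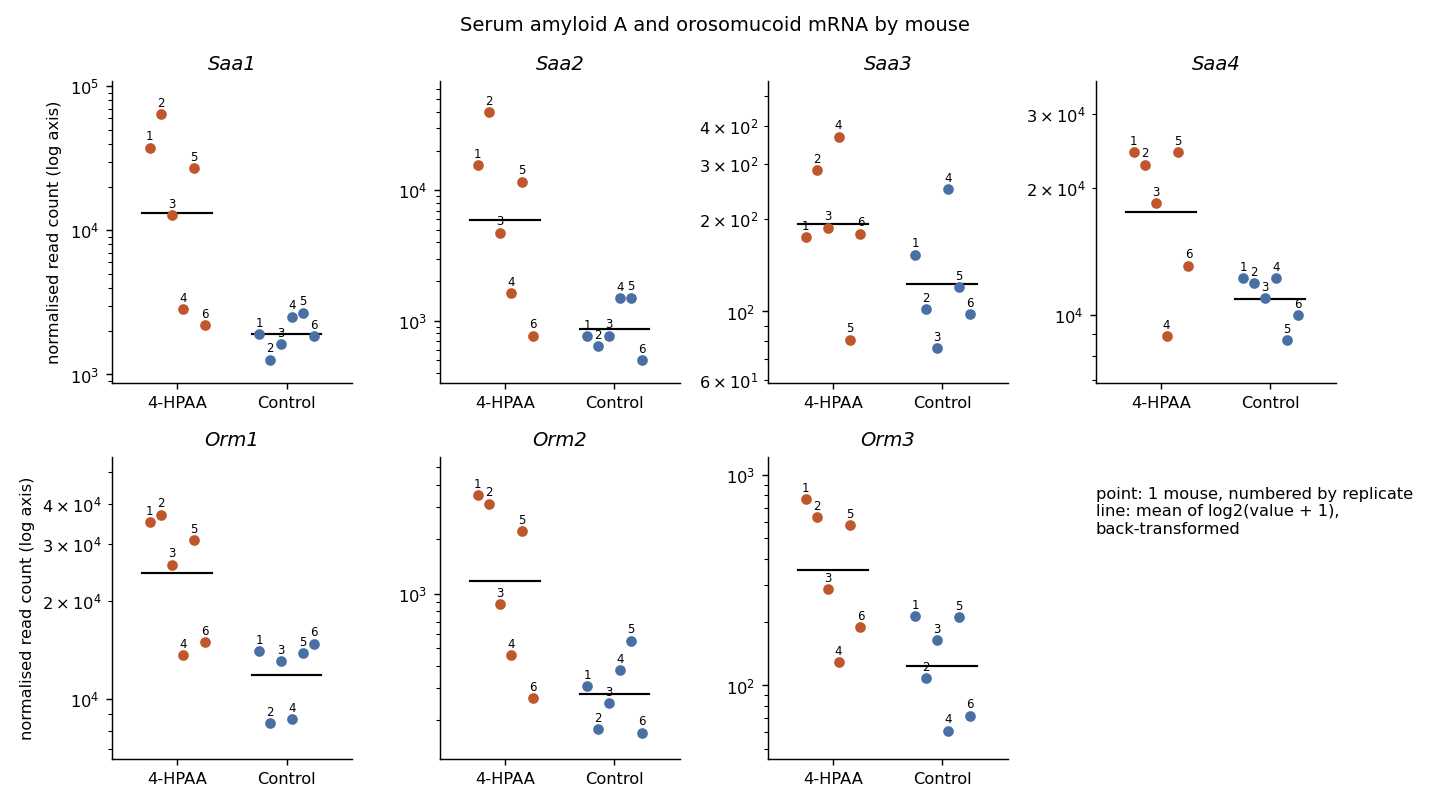
Normalised read count (log axis, a scale per gene) of the 4 Saa and 3 Orm genes in each mouse, 4-HPAA on the left and Control on the right; each point is 1 mouse labelled with its replicate number, and lines are means of log2(value + 1) turned back to counts. In Saa1 the 4-HPAA mice run between 2196 and 63934, the Control mice between 1270 and 2690, and replicates 1, 2 and 5 of 4-HPAA stand highest in every panel but that of Saa3.

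Saa1, the main inducible serum amyloid A, had 37622, 63934, 12759, 2844, 27065 and 2196 normalised read counts in 4-HPAA replicates 1 to 6. In Control replicates 1 to 6 it had 1901, 1270, 1629, 2521, 2690 and 1849. Thus 5 of the 6 4-HPAA mice lay above the highest Control mouse, and the sixth lay inside the Control range. The means were 24403 ± 23825 in 4-HPAA livers and 1977 ± 538 in Control livers (SD, n = 6 each), 12.3 times apart. The log2 difference was 2.78 ± 0.78 (SE), with a 95% interval between 1.08 and 4.48 (limma, adjusted p = 0.183). An exact two-sided permutation test of Saa1 alone over the 924 splits of the mice gave p = 0.00866, where 0.00216 is the smallest possible.

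The mean of Saa1 was carried by some mice far more than by others. Set against the Control mean, the level was 19.0 times as high in 4-HPAA replicate 1, 32.3 times in replicate 2 and 13.7 times in replicate 5. It was 6.45 times as high in replicate 3, but 1.44 times in replicate 4 and 1.11 times in replicate 6. The 4-HPAA mice therefore covered the whole distance between a level like that of the Control mice and one far above it. Leaving out 1 library at a time moved the log2 difference between 2.32, without 4-HPAA replicate 2, and 3.30, without 4-HPAA replicate 6. The lowest adjusted p that any of these fits gave for Saa1 was 0.0530.

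Saa2, the second inducible HDL apolipoprotein, lay between 767 and 39610 normalised read counts in 4-HPAA livers, with a median of 8217. Its Control values lay between 495 and 1502, with a median of 767.5. As with Saa1, 5 4-HPAA mice were above all Control mice and replicate 6 was not. The means were 12335 ± 14566 in 4-HPAA and 945 ± 442 in Control livers (SD, n = 6 each). The log2 difference was 2.77 ± 0.84 (95% interval 0.92 to 4.62; limma, adjusted p = 0.199), and the exact permutation test gave p = 0.0108. The order of the 6 4-HPAA mice was identical in Saa1 and Saa2, namely replicates 2, 1, 5, 3, 4 and 6 downward. Per kilobase of the main spliced transcript, Saa2 stood at 35.1 to 62.3 per 100 of Saa1 in 4-HPAA livers, with a median of 42.5. In Control livers it stood at 26.9 to 59.8, with a median of 49.0. The counted exons of Saa2 are not known, so these levels are uncertain. The log2 ratio of Saa2 to Saa1 differed by -0.01 between the groups (exact permutation p = 0.978).

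Saa3, which macrophages and fat tissue also make in mice, was the low member of the Saa group. It lay between 81 and 369 normalised read counts in 4-HPAA livers, with a median of 183, and between 76 and 250 in Control livers, with a median of 111. The groups overlapped almost throughout, with 2 4-HPAA mice above the highest Control mouse. The means were 213 ± 101 in 4-HPAA and 133 ± 62.8 in Control livers (SD, n = 6 each), and the log2 difference of 0.64 ± 0.34 had an interval that spans 0, between -0.11 and 1.38 (limma, adjusted p = 0.410; exact permutation p = 0.134). Its order among the 4-HPAA mice, replicates 4, 2, 3, 6, 1 and 5 downward, was unlike that of any other member. Replicate 5, among the highest in Saa1, was the lowest in Saa3, and replicate 4, among the lowest in Saa1, was the highest. Since other cells can make Saa3, marker sums are given beside it. All 16 macrophage and Kupffer cell markers were tested, and their sum lay between 6156 and 9822 in 4-HPAA livers and between 4413 and 14488 in Control livers. Of 12 adipocyte markers 8 were tested, without Adipoq and Plin1. Car3, which hepatocytes also make, held nearly all of their summed counts, and the other 7 summed to between 1141 and 2028 in 4-HPAA livers and between 1918 and 5073 in Control livers. Cfd, Cidea, Cidec and Pparg differed by -2.65, -2.60, -1.76 and -0.69 on the log2 scale, with all 6 4-HPAA mice below the Control mean of each. Which cells made these transcripts was not tested, nor was the part of macrophages and fat cells in the Saa3 values.

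Saa4, the constitutive form, lay between 8928 and 24415 normalised read counts in 4-HPAA livers, with a median of 20633. In Control livers it lay between 8704 and 12259, with a median of 11426. Here too 5 of the 6 4-HPAA mice were above every Control mouse, but the mouse left inside the Control range was replicate 4 and not replicate 6. The means were 18685 ± 6459 in 4-HPAA and 11009 ± 1426 in Control livers (SD, n = 6 each). The log2 difference was 0.68 ± 0.22 (95% interval 0.20 to 1.16; limma, adjusted p = 0.206), and the exact permutation test gave p = 0.0325.

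The makeup of serum amyloid A mRNA was compared between mice per kilobase of the main spliced transcript, since that of Saa4 is 2094 bases long and that of Saa1 609. The counted exons of Saa2 are not known, so shares of the summed Saa level are uncertain to that extent. On this scale Saa4 made up 5.99% to 54.7% of the summed Saa level in 4-HPAA livers, with a median of 19.3%, and 36.9% to 63.1% in Control livers, with a median of 55.0%. Saa1 made up 31.5% to 62.1% in 4-HPAA livers and 23.2% to 39.2% in Control livers. Set as a ratio, Saa4 stood at 10.4 to 173.6 per 100 of Saa1 in 4-HPAA livers, with a median of 34.2, and at 94.1 to 272 in Control livers, with a median of 172.5. The log2 ratio of Saa4 to Saa1 differed by -2.10, 4-HPAA minus Control, and 5 of the 6 4-HPAA mice were below the Control mean. With p-values adjusted over the 5 ratios tested within the families, a set chosen after the values were seen, the exact permutation test missed the threshold (p = 0.0130, adjusted p = 0.0649). Without 4-HPAA replicate 6 it passed, at -2.53 (exact permutation, adjusted p = 0.0216). The log2 ratio of Saa3 to Saa1 differed by -2.14 (exact permutation p = 0.0606, adjusted p = 0.115).

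**Figure D2:**
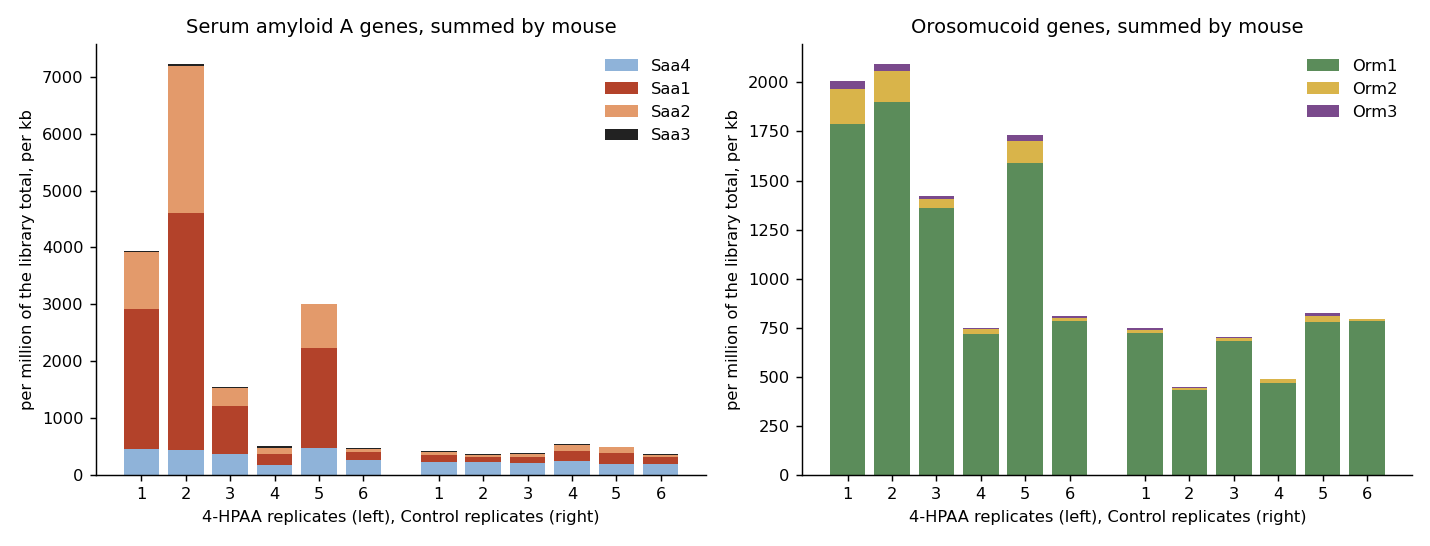
Values per 1000000 counts of the library total and per kilobase of transcript, stacked by gene, for the 4 Saa genes (left panel) and the 3 Orm genes (right panel); each bar is 1 mouse, 4-HPAA replicates left and Control replicates right. Saa4 makes up 36.9% to 63.1% of the Saa bar in Control mice and as little as 5.99% in a 4-HPAA mouse, while Orm1 makes up at least 89.1% of the Orm bar in all mice. The Saa2 part takes the length of its main spliced transcript, though its counted exons are not known.

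Orm1, the abundant orosomucoid, lay between 13687 and 37046 normalised read counts in 4-HPAA livers, with a median of 28454. The Control range ran between 8454 and 14834, with a median of 13460. Replicates 1, 2, 3 and 5 stood well clear of the Control mice, replicate 6 at 15027 just above the highest of them, and replicate 4 within their range. The means were 26282 ± 9994 in 4-HPAA and 12160 ± 2849 in Control livers (SD, n = 6 each), 2.16 times apart. The log2 difference was 1.05 ± 0.26 (95% interval 0.48 to 1.61; limma, adjusted p = 0.148), with an exact permutation p of 0.0108. Among the 7 genes Orm1 had the smallest unadjusted p, 0.00152 in limma.

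Orm2, at much lower levels, lay between 265 and 3505 normalised read counts in 4-HPAA livers, with a median of 1548. The Control livers lay between 171 and 551, with a median of 279.5. The 4-HPAA mice above all Control mice were 4, with replicates 4 and 6 inside the Control range. The means were 1744 ± 1406 in 4-HPAA and 307 ± 144 in Control livers (SD, n = 6 each). The log2 difference was 2.06 ± 0.63 (95% interval 0.68 to 3.43; limma, adjusted p = 0.199; exact permutation p = 0.0173).

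Orm3 lay between 129 and 769 normalised read counts in 4-HPAA livers, with a median of 432.5. In Control livers it lay between 61 and 213, with a median of 136. Again the 4 mice above the Control range were replicates 1, 2, 3 and 5. The means were 431 ± 263 in 4-HPAA and 138 ± 67.5 in Control livers (SD, n = 6 each). The log2 difference was 1.51 ± 0.47 (95% interval 0.50 to 2.53; limma, adjusted p = 0.199; exact permutation p = 0.0238). Orm1 remained nearly the whole of the orosomucoid mRNA, at 89.1% to 97.1% of the sum per kilobase in 4-HPAA livers and 94.8% to 98.4% in Control livers. On the same scale Orm2 stood at 1.76 to 10.01 per 100 of Orm1 in 4-HPAA livers and at 1.15 to 4.38 in Control livers. This log2 ratio differed by 1.01 and did not pass (exact permutation p = 0.0693, adjusted p = 0.115), nor did that of Orm3 to Orm1, which differed by 0.47 (exact permutation p = 0.199, adjusted p = 0.249).

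**Figure D3:**
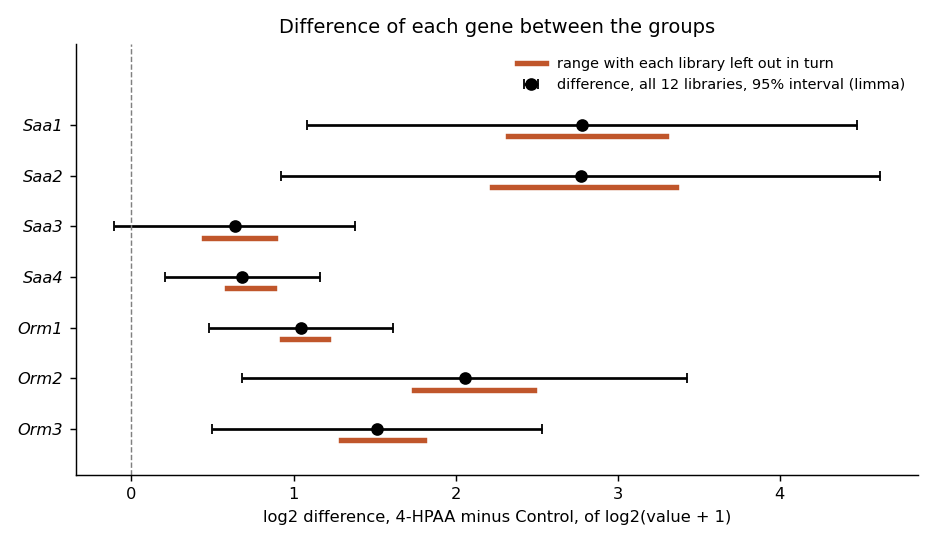
Difference of each gene, 4-HPAA minus Control, on the log2(value + 1) scale (x axis), with limma's 95% interval (black) and the range reached when each of the 12 libraries is left out in turn (orange). The intervals of 6 genes lie above 0 before any adjustment and that of Saa3 spans it, and every leave-one-out range stays above 0, from 0.45 for Saa3 to 3.36 for Saa2.

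Levels can be set side by side between genes only per transcript length, here as values per 1000000 counts of the library total and per kilobase of the main spliced transcript. The counted exons of Saa2 are not known, so its level on this scale and its place in the order are uncertain. In 4-HPAA livers the order was Saa1 at 1595, Orm1 at 1357, Saa2 at 810, Saa4 at 357, Orm2 at 89.6, Orm3 at 22.2 and Saa3 at 15.4. In Control livers it was Orm1 at 644, Saa4 at 215, Saa1 at 134, Saa2 at 64.7, Orm2 at 16.4, Saa3 at 9.87 and Orm3 at 7.34. Orm1 therefore stood first in Control livers, and Saa1 and Saa2 stood behind Saa4 there but ahead of it in the mean of 4-HPAA livers. The first 2 places in 4-HPAA livers were close against an SD of Saa1 nearly as large as its mean, so their order is not settled. The genes were read in the same mice, and a difference between them within mice was not tested. Nor was it tested for Saa2 and Saa4 in 4-HPAA livers or for the low pair Saa3 and Orm3 in both groups. Together the 7 genes made up 0.114% to 0.665% of the library total in 4-HPAA livers, with a median of 0.322%, and 0.0899% to 0.121% in Control livers, with a median of 0.111%.

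The spread among the 4-HPAA mice was itself wide. The SD of log2 values was larger in 4-HPAA than in Control livers for all 7 genes, as it was for 68.9% of all genes tested. In Saa1 it was 2.01 in 4-HPAA and 0.40 in Control livers, and in Saa2 2.13 in 4-HPAA and 0.66 in Control livers. The median gene had an SD of 0.25 in 4-HPAA and 0.18 in Control livers. An SD in 4-HPAA livers as large as that of Saa2 was found in 0.0393% of genes, as large as that of Saa1 in 0.0550%, of Orm2 in 0.204% and of Orm3 in 1.08%. For Saa3, Saa4 and Orm1 the shares were 4.64%, 9.75% and 8.15%. The most variable members were thus the inducible Saa pair and the minor Orm copies.

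The mice kept nearly one order across the genes. On the first principal component the 4-HPAA mice ran, from the lowest score up, 1, 2, 5, 3, 6, 4. Of the 7 genes, Orm3 alone had that order. The component was drawn from the 2000 most variable genes, with the 7 genes not set aside beforehand. Its part in the values of the 7 genes was not tested. Replicates 1, 2 and 5 were the 3 highest 4-HPAA mice, and replicate 3 the fourth, in 6 of the 7 genes, all but Saa3. The number of genes in which a 4-HPAA mouse lay above every Control mouse was 6, 7, 6, 3, 6 and 2 of 7 for replicates 1 to 6. At the low end the genes divided. Replicate 6 was the lowest of the 6 in Saa1, Saa2 and Orm2, while replicate 4 was the lowest in Saa4, Orm1 and Orm3. Among the Control mice, replicates 5 and 4 were the 2 highest in Saa1, Saa2 and Orm2, though not in Orm1, where replicate 6 was the highest and replicate 4 next to the lowest. Leaving out 4-HPAA replicate 3, the library that stood apart on the second component, gave log2 differences of 2.79 for Saa1, 2.84 for Saa2, 0.64 for Saa3, 0.67 for Saa4, 1.03 for Orm1, 2.14 for Orm2 and 1.57 for Orm3, and none passed.

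The genes whose pattern over the 12 libraries was most like that of Saa1 were found by the root mean square difference of log2 values, each gene centred on its own mean. Saa2 was at 0.35, Lcn2 at 0.52 and Orm2 at 0.58, where the median of all genes was 1.94. Lcn2 codes for lipocalin 2, an acute phase protein that binds bacterial iron carriers. It lay between 180 and 3446 normalised read counts in 4-HPAA livers and between 110 and 397 in Control livers, with a log2 difference of 2.40 ± 0.70. Like Saa1, Lcn2 had its 3 highest values in 4-HPAA replicates 1, 2 and 5 and its lowest 4-HPAA value in replicate 6. The next genes outside the 2 families lay further off, namely Prtn3 at 0.87 and Asns, Atp11a and Slc41a2 at 1.12 to 1.13.

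Orm1 had other nearest genes than Saa1. They were Cyb561 at 0.24, Prg4 at 0.26, Gse1 at 0.28, Fgl1 at 0.28 and C9 at 0.29, against a median of 0.74 over all genes, with Saa4 at 0.39. Prg4 codes for lubricin, Fgl1 for a liver-secreted fibrinogen-like protein and C9 for the last component of the membrane attack complex. Fgl1 lay between 6690 and 24957 normalised read counts in 4-HPAA livers and between 3543 and 9125 in Control livers, with a log2 difference of 1.27 ± 0.34. C9 lay between 9465 and 26305 in 4-HPAA livers and between 6900 and 11506 in Control livers, with a difference of 0.92 ± 0.22. In each of Fgl1 and C9 the lowest 4-HPAA mouse was replicate 4, as in Orm1. The likeness is a description over 12 libraries that share the 2 groups, and no gene named here passed limma's test after adjustment.

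**Figure D4:**
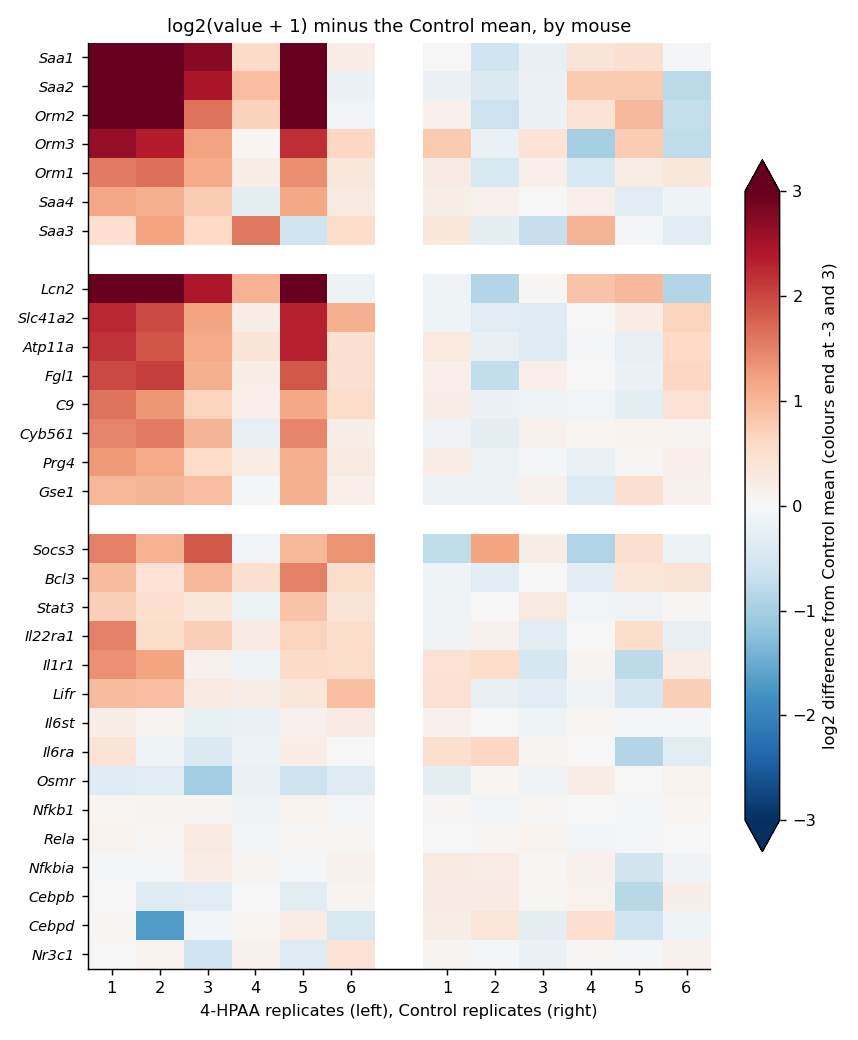
Heat map of log2(value + 1) minus the Control mean in each mouse, 4-HPAA replicates in the left block and Control replicates in the right, for the 7 genes (top), the genes of nearest pattern (middle) and cytokine signalling genes (bottom); red is higher, blue lower, and colours end at -3 and 3. Lcn2 follows Saa1 and Saa2 in replicates 1, 2, 3 and 5, whereas Nfkb1, with a difference of 0.03, stays pale across all mice.

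The other acute phase genes were described by lists chosen with earlier results of these data known. Of 36 other positive acute phase genes 34 were tested, 27 had a positive difference, 18 were higher and 2 lower at an unadjusted p under 0.05, and 0 passed after adjustment. The median difference of that list was 0.39 on the log2 scale, beside 0.64 for Saa3, the narrowest of the 7 genes. Its genes of smallest p included Serpina3k, a contrapsin-type protease inhibitor, at 0.74 ± 0.18, Itih4, an inter-alpha-trypsin inhibitor chain, at 0.57 ± 0.15, and Cfb, complement factor B, at 0.40 ± 0.10. Of 20 negative acute phase genes, those that fall in an acute phase, 11 had a positive difference, 4 were higher and 4 lower at an unadjusted p under 0.05, and the median was 0.05. Among the lower ones were Alb, albumin, at -0.38 ± 0.10, Serpina6, the plasma carrier of corticosteroids, at -0.53 ± 0.19, and Cyp3a11, a drug-metabolising cytochrome P450, at -1.41 ± 0.28 (limma, adjusted p = 0.103). Tfr2, of the same list, was higher, at 0.36 ± 0.11, with all 6 4-HPAA mice above the Control mean.

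The lipocalin family, to which the Orm genes belong, had 9 of 11 other listed genes tested, 8 with a positive difference and 4 higher at an unadjusted p under 0.05. Obp2a, an odorant-binding lipocalin, lay between 26 and 61 normalised read counts in 4-HPAA livers and between 5 and 23 in Control livers, with a log2 difference of 2.16 ± 0.35 (limma, adjusted p = 0.0809). Ambp, the precursor of the lipocalin alpha-1-microglobulin, differed by 0.36 ± 0.08, and Mup20, a major urinary protein, by 0.75 ± 0.28. Lcn2 belongs to both this list and that of the positive acute phase genes.

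The signals that drive these genes were examined at the level of their receptors and factors. Of 23 cytokines and receptors 19 were tested, 13 had a positive difference, 4 were higher and 1 lower at an unadjusted p under 0.05, and Il6, Osm, Il1r2 and Tnf were not analysed here. Il22ra1, the receptor chain for IL-22, lay between 40 and 97 normalised read counts in 4-HPAA livers and between 27 and 49 in Control livers, with a difference of 0.71 ± 0.21. Lifr, the LIF receptor, differed by 0.59 ± 0.22 and Il1r1, the IL-1 receptor, by 0.61 ± 0.28. Osmr, the oncostatin M receptor, was lower, at 45 to 82 in 4-HPAA livers and 77 to 109 in Control livers, with a difference of -0.50 ± 0.15. The 2 chains of the IL-6 receptor differed by less than their errors, Il6ra by -0.02 ± 0.22 and Il6st by 0.05 ± 0.09, and the sign of Il6ra turned in 5 of the 12 fits that left out a library, up to 0.10.

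Downstream of these receptors, 15 of 16 JAK-STAT3 pathway genes were tested, 11 had a positive difference and 3 were higher at an unadjusted p under 0.05. Bcl3, a nuclear partner of NF-kB p50 and p52, lay between 445 and 933 normalised read counts in 4-HPAA livers and between 261 and 434 in Control livers, so that its groups did not overlap, with a log2 difference of 0.81 ± 0.19. Stat3, the transcription factor itself, lay between 2004 and 4038 in 4-HPAA livers and between 2060 and 2696 in Control livers, with a difference of 0.44 ± 0.14. Socs3, the feedback inhibitor that STAT3 induces, lay between 172 and 658 in 4-HPAA livers and between 96 and 411 in Control livers, with a difference of 1.11 ± 0.37. The lowest 4-HPAA mouse in both Stat3 and Socs3 was replicate 4. Socs3 did not otherwise keep the order of the members, since its highest 4-HPAA mouse was replicate 3. Replicate 6, the lowest in Saa1, Saa2 and Orm2, had 460 in Socs3, above every Control mouse. These are mRNA levels, and the phosphorylated form of STAT3 was not measured.

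In the NF-kB pathway list, all 15 genes were tested and 0 had an unadjusted p under 0.05. Nfkb1 differed by 0.03 ± 0.06, Rela by 0.07 ± 0.07 and Nfkbia, the inhibitor, by 0.05 ± 0.12. That count depends on which genes were listed. Bcl3, the partner of NF-kB p50 and p52 that was higher by 0.81 ± 0.19, was counted among the JAK-STAT3 genes. Of the C/EBP factors, which bind the promoters of acute phase genes, Cebpb differed by -0.16 ± 0.17 and Cebpd by -0.32 ± 0.30. Of 15 glucocorticoid receptor genes and targets 14 were tested and 0 had an unadjusted p under 0.05, with the receptor Nr3c1 at -0.05 ± 0.14 and its target Dusp1 at 0.42 ± 0.25. Bcl3 aside, the intervals of these genes were narrow beside that of Saa1, but a small change in them cannot be set apart from none.

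Genes that carry, bind or clear serum amyloid A went both ways. Of 20 listed genes 18 were tested, 7 had a positive difference, 2 were higher and 5 lower at an unadjusted p under 0.05, and the median was -0.09. Pltp, the phospholipid transfer protein of HDL, lay between 190 and 483 normalised read counts in 4-HPAA livers and between 447 and 1475 in Control livers, with a log2 difference of -1.84 ± 0.28 (limma, adjusted p = 0.0809). Cd36, a scavenger receptor, differed by -1.19 ± 0.38, and Apoa2, an HDL apolipoprotein, by -0.35 ± 0.14. Selenos, which codes for selenoprotein S, described as a serum amyloid A receptor, differed by 0.30 ± 0.10.

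The median differences of the 6 lists of other cell types lay between -0.62 and 0.15, beside 1.51 over the 7 genes. Of 12 neutrophil markers 2 were tested, and the sum over the list lay between 44 and 92 in 4-HPAA livers and between 28 and 151 in Control livers. Of the 16 macrophage and Kupffer markers 4 had a positive difference and 2 were lower at an unadjusted p under 0.05, with a median of -0.07. All 12 stellate cell and fibroblast markers had a negative difference, 7 of them at an unadjusted p under 0.05, and 5 of the 8 adipocyte markers tested were lower at that level. Of 10 endothelial markers 3 were lower, and of 12 T, B and NK cell markers 3 were tested and 1 was higher. That marker, Cd4, a coreceptor of helper T cells, lay between 38 and 178 normalised read counts in 4-HPAA livers and between 13 and 62 in Control livers, with a log2 difference of 1.69 ± 0.41. From high to low the 4-HPAA mice ran 1, 2, 5, 3, 6, 4 in Cd4, the order they had in Orm3. The sum over the T, B and NK list lay between 93 and 205 in 4-HPAA livers and between 57 and 136 in Control livers. The part of cell makeup in the values of the 7 genes was not tested.

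The genes around the 2 clusters differed less than the members. Of the 7 other genes tested within 200 kb of the Saa cluster, 0 had an unadjusted p under 0.05, and their differences lay between -0.17, for Saal1 next to Saa3, and 0.13. Hps5, the neighbour beyond Saa2, differed by 0.08 ± 0.08. Around the Orm cluster 7 other genes were tested, between -0.51 and 0.38, and 1 of them, Ambp, had an unadjusted p under 0.05. The genes flanking the Orm cluster were Col27a1, at 0.38 ± 0.26, and Akna, at -0.40 ± 0.20.

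**Figure D5:**
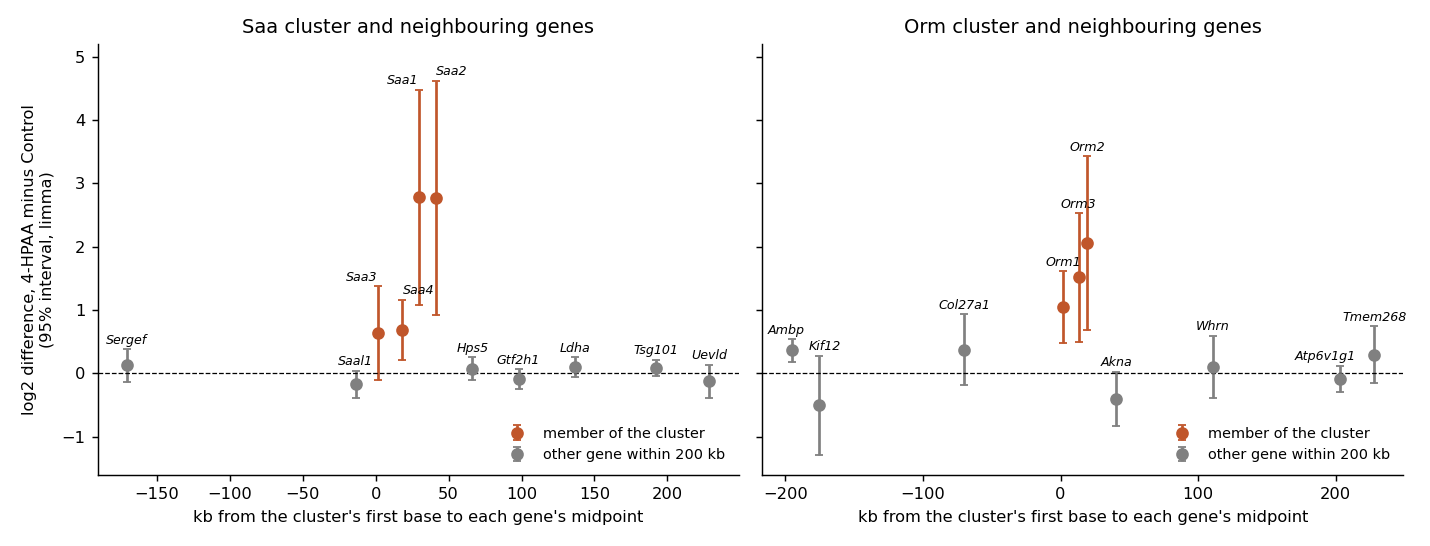
Difference of each gene, 4-HPAA minus Control, on the log2(value + 1) scale with limma's 95% interval (y axis), against the distance in kb between the first base of the cluster and the gene's midpoint (x axis), for the Saa cluster (left) and the Orm cluster (right). Members (orange) reach 2.78 in the Saa cluster and 2.06 in the Orm cluster, whereas the other genes within 200 kb (grey) lie between -0.51 and 0.38.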

How the data were processed

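Per the labels' protocols, liver RNA was purified on RNeasy columns, and sequenced on a NovaSeq instrument as directional TruSeq mRNA libraries. Per the submitters' processing notes, the build was GRCm38 and the tools, with no role given, were STAR, HTSeq, cutadapt, edgeR, DESeq2 1.28.1 and FastQC 0.11.9. The sources used here do not say whether strand was used in counting. The authors deposited 1 value per gene and library, handled as a score. They were taken as counts divided by a library factor and rounded, since low whole numbers (2 to 40) are missing in 5 libraries (5, 3 and 2 of them in 4-HPAA replicates 1, 2 and 5, 1 each in Control replicates 1 and 6); 7 libraries have no gap. GENCODE M21 named 13203 of 13267 rows. The test planned for raw counts was not used. Instead, log2(value + 1) was fitted with limma 3.58.1 (R 4.3.3), with a mean-variance trend and robust moderation, over the 12720 genes reaching 10 in 6 or more libraries. P-values were adjusted over all of them by Benjamini-Hochberg, threshold 0.05. Differences are 4-HPAA minus Control, and the scale understates the change of low genes. Exact permutation tests were run in R for single genes and with SciPy 1.17.1 for the ratios. The fit was tested on simulated data. Named genes are the 7 members, up to 4 genes of smallest p and the named receptors and factors of each list, neighbours within 200 kb, and the 5 genes nearest to Saa1 and to Orm1; some others that the rule takes are not described. Members, lists and tests were chosen with earlier results of these data known. Alternatives covered pseudocount, filter, scaling (TMM, median of ratios, equal totals), weights, a replicate block, summed copies and leaving out each library.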

Additional observations from a re-analysis of the deposited data

Results flagged for a closer look

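None of the 7 Saa and Orm genes had a mouse far from the others of its group by Dixon's test. Over 65 genes the test was run in 130 groups of 6 mice and marked 11, where chance marks about 1 in 20. In 4-HPAA livers it marked the highest value of Adgre1 (183, replicate 5), Ccr2 (58, replicate 4), Il22ra1 (97, replicate 1), Myd88 (472, replicate 3) and Pltp (483, replicate 4). In Control livers it marked the highest value of Asns (73, replicate 6), Cidea (636, replicate 5), Mup20 (133976, replicate 6) and Stat3 (2696, replicate 3), and the lowest value of Ambp (46293, replicate 5) and Cebpb (646, replicate 5). All are normalised read counts.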

How the results depend on the processing

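Over 23 alternative settings, 12 of which left out a library, all 156 recomputed differences of the 7 genes kept their sign and 3 passed the threshold. The count of genes passing, 0 of 12720, became 139 with array weights, 7 with voom and sample quality weights, 11 with the replicate number as a block, and 0 to 193 when a library was left out (193 without 4-HPAA replicate 4, 5 without Control replicate 1). The count among the 7 became 1 with the replicate block (Orm3, adjusted p = 0.0497) and 0 to 2 with a library left out (Saa4 at 0.88 and Orm1 at 1.21, without 4-HPAA replicate 4). The numbers are not known to pair mice: correlations of same-numbered deviations ran between -0.183 and 0.282, and 2 of 6 replicates correlated best with their own number. Leaving out a library moved the log2 ratio of Saa2 to Saa1 between -0.159 and 0.071, that of Saa4 to Saa1 between -2.53 and -1.71, and the differences of Il6ra between -0.193 and 0.104, Nfkbia between -0.054 and 0.107 and Nr3c1 between -0.147 and 0.059. Nfkbia was -0.034 with array weights and -0.068 with voom and sample quality weights, and Nr3c1 was 0.027 with array weights and 0.0020 with voom; the cause was not tested. Of 1299 recomputed differences of 57 other genes, 1287 kept their sign and 35 passed.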
